A study of Mus musculus with 9 samples.

Results

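The serum amyloid A and orosomucoid families comprise 7 paralogous genes in the mouse, Saa1, Saa2, Saa3 and Saa4 on chromosome 7 and Orm1, Orm2 and Orm3 on chromosome 4. They were taken by gene symbol from liver RNA sequencing, and all 7 were found among the 17046 genes listed. All 7 passed the filter on low values in each of the 3 comparisons described here. The study asked how hepatic Mettl3, which writes the N6-methyladenosine mark on RNA, bears on the response of the liver to alcohol.

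All 9 livers came from wild-type mice given an AAV8 vector through the tail vein, with a TBG promoter, which is active in hepatocytes, and a WPRE element. The first group received the vector carrying Mettl3 with a 3×FLAG tag and was fed ethanol (3 libraries, called Mettl3 ethanol livers). The second received the vector with only a cloning site and tag and was fed ethanol (3 libraries, ethanol livers). The third received that same control vector and was pair-fed the control diet (3 libraries, pair-fed livers). Diets began 3 weeks after the virus and lasted 10 days, and ended in a single binge of ethanol, or of maltose in pair-fed mice. No group combined the Mettl3 vector with the control diet. The sample titles read WT and Mettl3OE and name no virus, and the labels used here give neither age nor sex. They do not say that libraries came from separate animals, so p-values measure only the spread between these samples, which may be technical.

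Acute phase proteins are plasma proteins whose synthesis by hepatocytes changes during inflammation. Serum amyloid A proteins are small apolipoproteins that travel on high-density lipoprotein, and orosomucoids, or alpha-1-acid glycoproteins, are heavily glycosylated carriers of lipids and drugs. Interleukin-6 acting through STAT3, interleukin-1 acting through NF-kB, C/EBP factors and glucocorticoids are the classical inducers of both families in hepatocytes.

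The upstream sequences of 6 members are shown because they place the paralogue pairs, and the letters that C/EBP and NF-kB factors are known to bind, beside the values that follow. They are the 250 bases before the RefSeq start site (GRCm38.p6, the mm10 assembly), and Orm1 was not matched. Capitals mark matches to TTNNGNAA (C/EBP type) or to GGG and CC with any 5 bases between them (NF-kB type) on either strand, and the longer run in Saa1 holds one of each side by side. The start sites used for Saa1, Saa3 and Orm3 lie inside the whole annotated span of those genes.

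Saa1, chr7:46742981-46743230, minus strand: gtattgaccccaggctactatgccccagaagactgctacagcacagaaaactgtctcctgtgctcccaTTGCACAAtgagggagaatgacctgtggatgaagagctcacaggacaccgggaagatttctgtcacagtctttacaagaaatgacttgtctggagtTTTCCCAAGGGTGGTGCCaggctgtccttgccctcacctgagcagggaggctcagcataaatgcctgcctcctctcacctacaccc
Saa2, chr7:46751583-46751832, plus strand: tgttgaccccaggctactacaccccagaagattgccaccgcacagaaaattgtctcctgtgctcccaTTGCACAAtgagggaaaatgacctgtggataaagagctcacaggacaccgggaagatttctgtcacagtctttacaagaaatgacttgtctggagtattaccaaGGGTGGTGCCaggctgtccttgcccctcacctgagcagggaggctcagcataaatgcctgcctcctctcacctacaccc
Saa3, chr7:46715677-46715926, minus strand: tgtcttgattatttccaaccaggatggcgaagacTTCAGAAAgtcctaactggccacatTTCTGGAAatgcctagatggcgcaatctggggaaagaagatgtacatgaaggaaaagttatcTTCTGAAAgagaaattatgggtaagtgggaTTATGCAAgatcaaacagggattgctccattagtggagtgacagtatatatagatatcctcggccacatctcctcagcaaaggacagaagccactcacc
Saa4, chr7:46732604-46732853, minus strand: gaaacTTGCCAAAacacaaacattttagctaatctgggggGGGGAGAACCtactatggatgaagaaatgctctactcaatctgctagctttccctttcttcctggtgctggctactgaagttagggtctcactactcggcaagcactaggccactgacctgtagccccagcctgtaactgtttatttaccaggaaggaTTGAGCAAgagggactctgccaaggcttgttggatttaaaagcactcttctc
Orm2, chr4:63362199-63362448, plus strand: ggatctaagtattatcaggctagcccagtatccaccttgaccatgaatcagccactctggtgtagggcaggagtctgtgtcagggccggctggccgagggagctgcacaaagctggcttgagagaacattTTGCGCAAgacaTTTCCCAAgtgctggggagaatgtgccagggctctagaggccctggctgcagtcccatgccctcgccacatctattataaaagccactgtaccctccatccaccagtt
Orm3, chr4:63355908-63356157, plus strand: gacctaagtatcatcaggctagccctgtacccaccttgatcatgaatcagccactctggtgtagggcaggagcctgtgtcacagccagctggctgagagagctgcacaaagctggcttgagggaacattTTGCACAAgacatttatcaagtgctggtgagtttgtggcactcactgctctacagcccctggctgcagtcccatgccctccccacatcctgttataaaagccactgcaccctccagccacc

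The Saa1 and Saa2 windows were identical over 94.8% of aligned bases and those of Orm2 and Orm3 over 85.5%, whereas Saa1 and Saa3 shared 48.9%. All 6 windows held a C/EBP-type match, as did 36.8% of the 32851 promoter windows of the same length. Saa3 held 4 such matches, Saa1, Saa4 and Orm2 held 2 each, and Saa2 and Orm3 held 1 each. Saa2 differs from Saa1 in lacking the C/EBP-type match next to the NF-kB-type match. The NF-kB-type match lies 78 to 69 bases before the start in Saa1 and 79 to 70 before it in Saa2. An NF-kB-type match was present in Saa1, Saa2 and Saa4 and in 45.8% of all windows. None of the 6 windows held TTCNNNGAA, the STAT type, which occurred in 7.02% of all windows. A TATAAA box lay 33 bases before the start of Orm2 and 29 before that of Orm3, against 7.59% of all windows with one. These matches are letters in a window and were not tested as binding sites.

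The copies are close enough that the division of reads among them is uncertain. Coding sequences were 95.1% identical between Saa1 and Saa2, 89.9% between Orm1 and Orm2 and 88.0% between Orm2 and Orm3. Of all 50-base words in their transcripts, 14.8% for Saa1, 13.3% for Saa2, 20.4% for Orm1 and 22.7% for Orm2 occurred also in a sister gene or, for Orm2, in the pseudogene Gm11212. At 100 bases no word of Saa1 or Saa2 was shared, and 6.95% of those of Orm1 and of Orm2 were. The annotated non-coding genes Gm31882 and Gm52743 overlap Saa3 and the start of Orm1, and since no strand setting is given their reads cannot be told apart there. Summed values are given beside the single genes.

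The libraries held 34656480 to 38159563 reads in listed genes. Within groups the livers correlated across 10229 genes at 0.991 to 0.994 when pair-fed, 0.972 to 0.986 when ethanol-fed and 0.972 to 0.992 with the Mettl3 vector. Ethanol liver 1 correlated with livers 2 and 3 of its group at 0.972 and 0.973, against 0.986 between those 2. Likewise, Mettl3 ethanol liver 3 correlated with livers 1 and 2 of its group at 0.977 and 0.972, against 0.992 between those 2. Mettl3 itself, the gene on the vector, stood at 38.5, 25.0 and 33.3 FPKM in the Mettl3 ethanol livers, against 5.44, 4.86 and 3.78 FPKM in ethanol livers and 3.97, 3.10 and 3.38 FPKM in pair-fed livers, as the labels have it. Hepatocyte markers summed to 54929 to 65645 FPKM in Mettl3 ethanol livers, 61166 to 80338 in ethanol livers and 71763 to 78033 in pair-fed livers. One ethanol library, liver 1, stood apart from the other ethanol livers in the genes described next, and differences between the ethanol groups are given with and without it.

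Transcripts of all 7 members were higher in ethanol livers than in pair-fed livers, both with the control virus. Called genes passed limma's test on log2(FPKM + 1) with a Benjamini-Hochberg adjusted p under 0.05 over all genes tested, and 7 of 7 members were called higher, against 10.0% of the 10064 genes tested. Over all genes tested, 26.0% were called lower and 36.0% in either direction, and under median-ratio scaling 1796 genes were called higher and 1663 lower in place of 1009 and 2616. In each of the 7 the ethanol livers lay above the pair-fed livers without overlap, against 15.4% of all genes tested, while 37.2% of genes lay lower without overlap. Fold changes are differences in log2(FPKM + 1), which understate changes of low genes. In bulk liver, more cells of a type and more RNA per cell cannot be told apart.

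Saa1 and Saa2, the inducible forms that circulate on high-density lipoprotein, showed the widest change. Saa1 stood at 1361, 8032 and 6821 FPKM in ethanol livers, against 60.1, 36.1 and 32.2 FPKM in pair-fed livers. Saa2 stood at 994, 8096 and 6617 FPKM in ethanol livers, against 37.3, 21.3 and 22.4 FPKM in pair-fed livers. Ethanol liver 1 was the lowest of its group in both genes and still lay far above every pair-fed liver. The log2 fold change was 6.64 ± 0.64 for Saa1 (SE, n = 3 each, limma adjusted p = 0.00106) and 7.12 ± 0.74 for Saa2 (adjusted p = 0.00125). They ranked second and first by fold change of all genes tested. For Saa1 and Saa2 summed the log2 fold change was 6.87 (95% confidence interval 5.28 to 8.46), and without ethanol liver 1 it was 7.75.

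Saa3, which in the mouse is made chiefly by macrophages and fat and less by hepatocytes, was far less abundant. Its level was 11.8, 23.6 and 27.1 FPKM in ethanol livers, against 6.38, 5.15 and 5.52 FPKM in pair-fed livers. Saa4, the form made constitutively, had 183, 188 and 254 FPKM in ethanol livers, against 135, 89.8 and 87.7 FPKM in pair-fed livers. Both genes were higher in every ethanol liver, Saa3 by 1.64 ± 0.28 on the log2 scale (limma adjusted p = 0.00552) and Saa4 by 1.01 ± 0.20 (adjusted p = 0.00939). Beside Saa3, the 12 Kupffer cell markers summed to 185 to 277 FPKM in ethanol livers and to 346 to 393 FPKM in pair-fed livers, with 9 called lower (8 under median-ratio scaling) and none higher, against 26.0% of all genes called lower. Of 7 adipocyte markers 6 were listed, and they summed to 388 to 545 FPKM in ethanol livers and to 716 to 1034 FPKM in pair-fed livers. Of that list 2 were tested, with Fabp4, a fatty acid-binding protein, called higher (1.24, limma adjusted p = 0.00762) and Car3, a carbonic anhydrase also expressed in hepatocytes, called lower (-0.84, adjusted p = 0.0131). Adipoq, which defines fat cells, did not exceed 0.606 FPKM in any of these 6 livers. The part of these cells in the Saa3 difference was not tested.

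Orm1, the main orosomucoid of mouse liver, stood at 2133, 4416 and 4623 FPKM in ethanol livers, against 898, 597 and 688 FPKM in pair-fed livers. Orm2 had 148, 356 and 243 FPKM in ethanol livers, against 17.9, 8.45 and 6.38 FPKM in pair-fed livers. Orm3 had 11.1, 21.9 and 25.1 FPKM in ethanol livers, against 1.50, 0.326 and 1.08 FPKM in pair-fed livers. Ethanol liver 1 was again the lowest of its group in all 3 genes, though by less than in Saa1 and Saa2. Orm2 changed most (log2 fold change 4.42 ± 0.41, limma adjusted p = 0.000955), followed by Orm3 (3.34 ± 0.33, adjusted p = 0.0011) and Orm1 (2.29 ± 0.31, adjusted p = 0.00259). Orm3 lies near the filter in pair-fed livers, and its log2 fold change was 4.30 with a pseudocount of 0.1 and 4.49 from recovered reads with limma-voom. The 3 genes summed gave 2.37 (95% confidence interval 1.66 to 3.09), close to Orm1 alone.

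**Figure D1:**
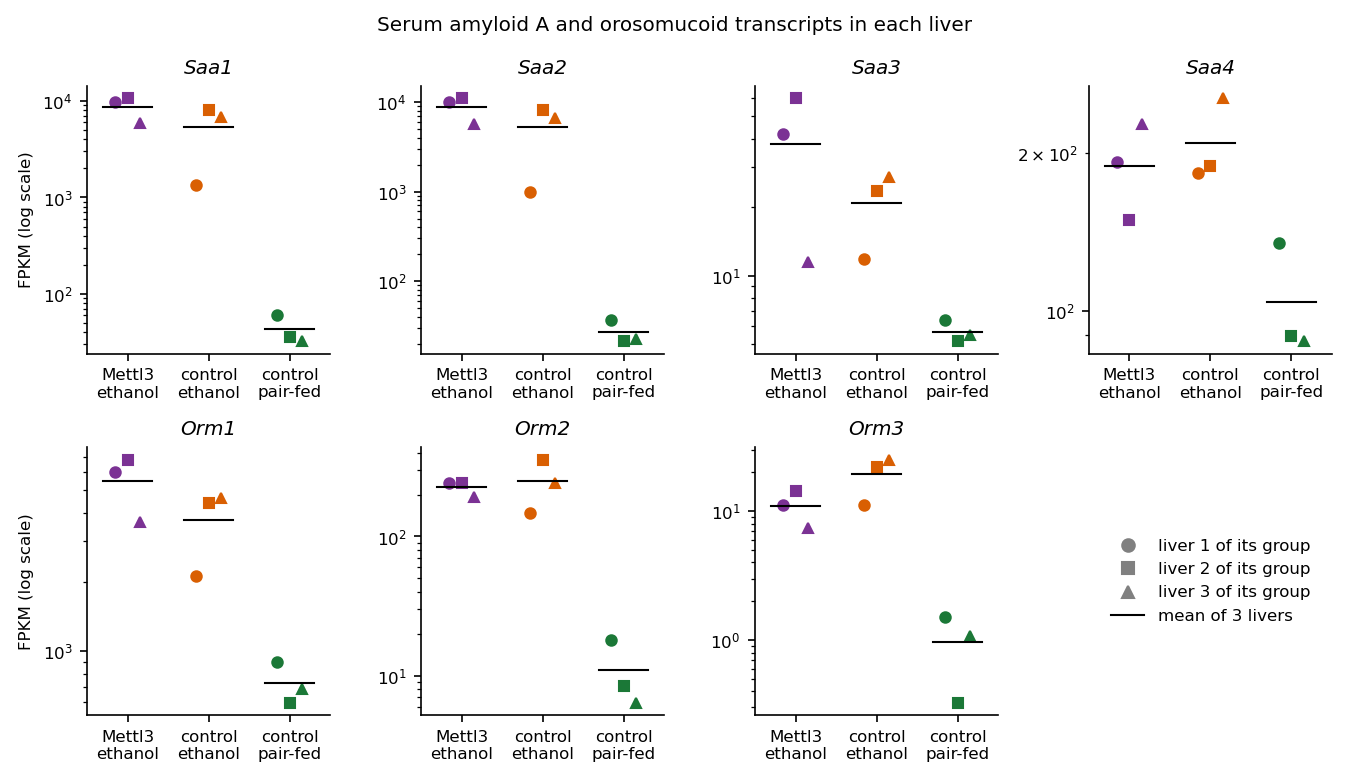
FPKM of the 7 members on log axes, with 1 point a liver and a line at the mean of 3. In every panel the pair-fed livers lie below all 6 ethanol-fed livers, and for Saa1 and Saa2 ethanol liver 1 (circle) sits below the other ethanol livers, at 1361 and 994 FPKM.

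The authors' deposited table for this pair of groups gives log2 fold changes of 7.22 for Saa1, 7.84 for Saa2, 2.10 for Saa3, 1.21 for Saa4, 2.57 for Orm1, 4.72 for Orm2 and 4.54 for Orm3. The highest q-value among the 7 in the authors' deposited table is 5.02e-06, for Saa4.

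As a share of reads in listed genes, Saa1 and Saa2 together took 0.195% to 1.33% in ethanol livers, against 0.00452% to 0.00805% in pair-fed livers. All 7 members together took 0.418% to 1.76% in ethanol livers, against 0.0714% to 0.109% in pair-fed livers. For Saa1, counting error was small beside the spread between livers. In pair-fed liver 3, which had the fewest Saa1 reads, 993 reads gave a share of 0.00267% with a 95% Wilson interval of 0.00251% to 0.00284%, and such intervals cover counting error only. For Saa3 it was not small among pair-fed livers 1 to 3. Their 127, 101 and 109 reads gave overlapping intervals of 0.000285% to 0.000403%, 0.000225% to 0.000332% and 0.000243% to 0.000353%. Orm3 had only 30 reads in pair-fed liver 2. By FPKM rank among listed genes, Saa1 was number 40, 8 and 11 in ethanol livers 1 to 3, against 857, 1310 and 1442 in the pair-fed livers.

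The make-up of the Saa family changed with its level. Saa4 made up 7.17%, 1.15% and 1.85% of summed Saa FPKM in ethanol livers, against 56.5%, 59.0% and 59.3% in pair-fed livers. The constitutive form thus held more than the other members together in pair-fed livers only. Within the inducible pair, Saa2 made up 42.2%, 50.2% and 49.2% of Saa1 plus Saa2 in ethanol livers, against 38.3%, 37.1% and 41.0% in pair-fed livers. The groups did not overlap, and the gap to the nearest pair-fed liver was narrow for ethanol liver 1. In the Orm family, Orm1 made up 93.1%, 92.1% and 94.5% in ethanol livers, against 97.9%, 98.6% and 98.9% in pair-fed livers, and Orm2 made up 6.46%, 7.43% and 4.96%, against 1.95%, 1.39% and 0.917%. Each of the 8 shares computed (Saa2 of Saa1 plus Saa2, and each gene of its family) separated the groups. The exact two-sided permutation p was 0.1 for each, the smallest that 3 against 3 allows, also after Benjamini-Hochberg adjustment over the 8. Shares of a family add up to the whole, so the 8 are not independent of one another.

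**Figure D2:**
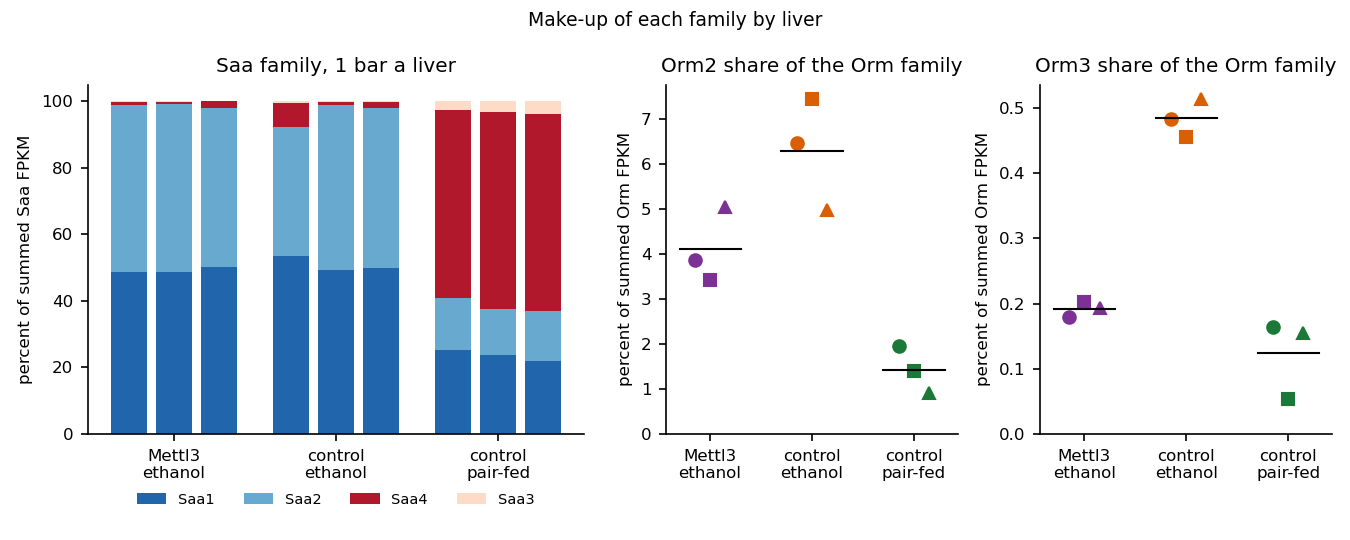
Left, the percent of summed Saa FPKM held by each gene, 1 bar a liver, and right, the Orm2 and Orm3 percent of summed Orm FPKM, 1 point a liver with the mean as a line. Saa4 (red) holds 7.17% or less of the family in ethanol-fed livers and 56.5% or more in pair-fed livers, and the Orm3 share is higher in all 3 control-virus ethanol livers (0.456% to 0.513%) than in the Mettl3 ethanol livers (0.179% to 0.202%).

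Between the ethanol groups the comparison asks whether the Mettl3 vector altered the families under ethanol. No member was called, and 1 of 9706 genes tested (0.0103%) was, Mettl3 itself. No member had an unadjusted p under 0.05 with limma, while 723 genes did, and limma-voom on recovered reads also called no member. All 7 members overlapped between the groups, whereas 6.17% of genes tested lay higher and 6.62% lower without overlap. Saa1 stood at 9659, 10706 and 5954 FPKM in Mettl3 ethanol livers, against 1361, 8032 and 6821 FPKM in ethanol livers. The Saa2 values were 9930, 11020 and 5642 FPKM in Mettl3 ethanol livers, against 994, 8096 and 6617 FPKM in ethanol livers. In both genes 2 Mettl3 livers lay above every ethanol liver and liver 3 lay below 2 of them.

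The summed log2 difference of Saa1 and Saa2 was 1.09, with a 95% confidence interval of -0.58 to 2.76 (limma adjusted p = 0.674, and 0.399 to 1.00 over the alternatives). It was 0.21 without ethanol liver 1 and ranged up to 1.60 as other libraries were left out. The interval holds both 0 and log2 differences above 2, and a p above the threshold does not show that the groups were alike.

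Saa3 was the most uneven member among Mettl3 ethanol livers, at 42.1, 60.2 and 11.5 FPKM, against 11.8, 23.6 and 27.1 FPKM in ethanol livers. Its log2 difference was 0.63 (95% confidence interval -0.77 to 2.03), with Mettl3 ethanol livers at both ends of the range. Single libraries moved it: it was 0.28 without ethanol liver 1, 0.42 and 0.16 without Mettl3 ethanol livers 1 and 2, and 1.31 without Mettl3 ethanol liver 3. Saa4 had 192, 149 and 226 FPKM in Mettl3 ethanol livers, against 183, 188 and 254 FPKM in ethanol livers, a difference of -0.14 (-0.61 to 0.32) that was -0.23 without ethanol liver 1 and changed sign without ethanol liver 3 (0.0049) or Mettl3 ethanol liver 2 (0.016). Saa4 was thus bounded most closely of the 4 serum amyloid genes.

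Orm1 stood at 6007, 6794 and 3625 FPKM in Mettl3 ethanol livers, against 2133, 4416 and 4623 FPKM in ethanol livers, a log2 difference of 0.59 (95% confidence interval -0.27 to 1.44). The Orm1 difference was 0.23 without ethanol liver 1 and ranged up to 0.86, without Mettl3 ethanol liver 3. Orm2 had 242, 242 and 193 FPKM in Mettl3 ethanol livers, against 148, 356 and 243 FPKM in ethanol livers, with a difference of -0.06 that turned to 0.02 under median-ratio scaling and was -0.39 without ethanol liver 1 and 0.24 without ethanol liver 2. Neither gene separated the groups. Orm3 went the other way, at 11.2, 14.2 and 7.38 FPKM in Mettl3 ethanol livers, against 11.1, 21.9 and 25.1 FPKM in ethanol livers. Its difference was -0.74 (95% confidence interval -1.52 to 0.05, limma adjusted p = 0.641, and 0.420 to 1.00 over the alternatives), and the groups overlapped through ethanol liver 1, without which it was -1.07.

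Set against its own family, Orm3 did separate the ethanol groups. It made up 0.179%, 0.202% and 0.193% of summed Orm FPKM in Mettl3 ethanol livers, against 0.484%, 0.456% and 0.513% in ethanol livers and 0.163%, 0.0538% and 0.155% in pair-fed livers. The exact two-sided permutation p was 0.1, the smallest possible, and 0.4 after Benjamini-Hochberg adjustment over the 8 shares. By recovered reads the mean share was 0.600% in Mettl3 ethanol livers and 1.50% in ethanol livers, higher than by FPKM. FPKM divides by gene length, and reads per FPKM show that a longer length was used for Orm3 than for Orm1. The GENCODE transcripts compared above have 773 bases for Orm3 and 775 for Orm1. The size of the Orm3 share, and its FPKM level, thus depend on the length used. Ethanol liver 1, low in every Orm gene, had an Orm3 share inside the range of the other ethanol livers. The Orm1 share was likewise higher in every Mettl3 ethanol liver, at 96.0%, 96.4% and 94.8%, against 93.1%, 92.1% and 94.5% in ethanol livers (exact permutation p = 0.1, adjusted 0.4). The Orm1 share is what the Orm2 and Orm3 shares leave, so it is not a separate result.

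**Figure D3:**
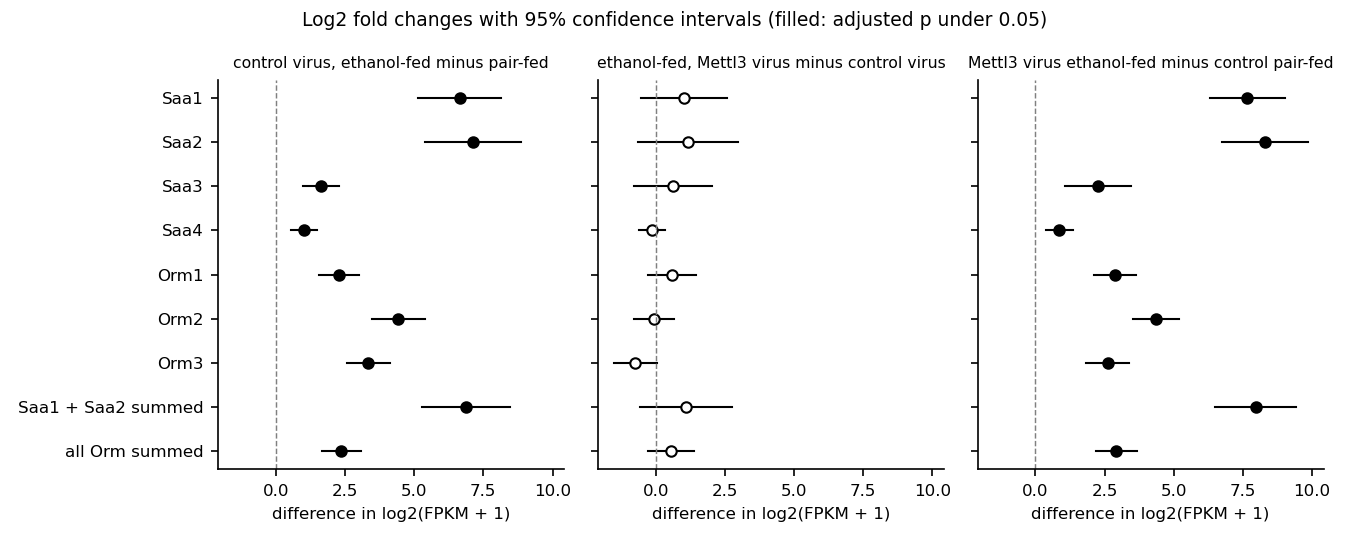
Differences in log2(FPKM + 1) with 95% confidence intervals for the 7 members and the summed families in the 3 comparisons, filled where the adjusted p is under 0.05. All intervals of the left and right panels lie above 0, and all in the middle panel include it.

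Mettl3 ethanol livers against pair-fed livers differ in both virus and diet, and these cannot be told apart in that comparison. It shares the pair-fed libraries with the ethanol comparison above, and was fitted over all 9 libraries. All 7 members were called higher, against 13.9% of the 10229 genes tested, and in none did the groups overlap, against 19.3% of genes that lay higher without overlap. Over all genes tested 34.9% were called lower and 48.8% in either direction (2597 higher and 2168 lower under median-ratio scaling in place of 1424 and 3572), and 44.2% lay lower without overlap. Log2 fold changes were 7.65 ± 0.60 for Saa1, 8.29 ± 0.69 for Saa2, 2.27 ± 0.52 for Saa3, 0.86 ± 0.22 for Saa4, 2.88 ± 0.33 for Orm1, 4.36 ± 0.38 for Orm2 and 2.61 ± 0.34 for Orm3 (SE, n = 3 each). The highest limma adjusted p among them was 0.0108, for Saa4. Saa1 and Saa2 together took 0.959% to 1.80% of reads in Mettl3 ethanol livers, and all 7 members 1.31% to 2.39%.

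In every group, pair-fed included, livers differed among themselves in Saa1 and Saa2 more than in most genes. The SD of log2(FPKM + 1) over the 3 ethanol livers was 1.41 for Saa1 and 1.67 for Saa2, against a median of 0.17 over 10229 genes, and 0.26 for Saa4. Among Mettl3 ethanol livers it was 0.45 for Saa1, 0.52 for Saa2 and 1.20 for Saa3, against a median of 0.16. Among pair-fed livers it was 0.47 for Saa1, 0.43 for Saa2 and 0.35 for Saa4, against a median of 0.097. The SD of Saa1 exceeded that of 98.8% of genes in pair-fed livers, 99.7% in ethanol livers and 92.8% in Mettl3 ethanol livers. The ratio of Saa1 to Orm1 FPKM was 1.61, 1.58 and 1.64 in the Mettl3 ethanol livers, although their Saa1 level varied by 1.80-fold. In ethanol livers that ratio was 0.638, 1.82 and 1.48, and in pair-fed livers it was 0.0670, 0.0605 and 0.0468. Ethanol liver 1 was therefore low in Saa1 also relative to Orm1.

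Summed neutrophil markers were lowest, among the ethanol-fed livers, in the library with the least Saa1 and Saa2. Of 12 such markers 9 were listed, and their FPKM summed to 49.6 to 108 in Mettl3 ethanol livers, 9.36 to 75.9 in ethanol livers and 7.56 to 11.7 in pair-fed livers. In ethanol livers against pair-fed livers 4 of them were tested and 1, S100a8, was called higher, against 10.0% of all genes. In Mettl3 ethanol livers against pair-fed livers 5 of 6 were called higher, where 13.9% of all genes were. Cxcr2 and Mmp8, both among those 5, passed the filter only with the Mettl3 ethanol libraries in the fit, so the filter favoured their calls. The 5 of 6 therefore cannot be read against the share of all genes. The 2 counts also cover different genes and cannot be set against each other. S100a8, a calcium-binding protein of neutrophils, stood at 2.94, 21.2 and 23.0 FPKM in ethanol livers 1 to 3, against 1.02, 2.07 and 3.29 FPKM in pair-fed livers. Ethanol liver 1 was low in it as in Saa1, and here lay within the pair-fed range. Ngp, a granule protein, was listed at 0 in all pair-fed livers and in ethanol liver 1, and Mpo, Camp and Ltf have no row. The part of neutrophil content in these results was not tested.

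Genes with the profile most like each member over the 9 livers were found by the root mean square difference of centred log2(FPKM + 1), where 0 is identity. Saa1 and Saa2 were nearest to each other (0.30), and outside the families both were nearest to Lcn2, which encodes the siderophore-binding lipocalin 2 (0.67 for Saa1 and 0.91 for Saa2), then to the metallothioneins Mt2 and Mt1. Orm2 was nearest to the protease inhibitor Serpina3n (0.57), then to Mt1 and Mt2. Orm1 was nearest to Syt12, a synaptotagmin (0.20), Gmppb, which makes GDP-mannose (0.27), and Hp, or haptoglobin (0.27). For Orm3 they were Btg2 (0.43), E030018B13Rik (0.52) and Cdkn1a, a cyclin-dependent kinase inhibitor (0.54). Saa3 was nearest to Tubb6, a tubulin (0.22), Cldn14, a claudin (0.24), and Ccdc134 (0.30), and Saa4 to Rnd2, Eif2b3 and Gm53464 (0.20 to 0.21). These likenesses are descriptions over 10229 genes and share the same libraries.

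Genes beside the 2 clusters were not called in ethanol livers against pair-fed livers where they could be tested. The Saa genes span 42.3 kb of chromosome 7 (chr7:46711998-46754313, GRCm38), in the order Saa3, Saa4, Saa1 and Saa2. Of 10 other annotated genes within 100 kb, 4 were tested in that comparison, with limma adjusted p-values of 0.158 to 0.695: Saal1 (log2 fold change 0.16), Hps5 (-0.21), Gtf2h1 (0.06) and Ldha (-0.09). With 36.0% of all genes called in either direction, so few neighbours set no contrast with the rest of the genome. In Mettl3 ethanol livers against pair-fed livers Saal1 (0.27, limma adjusted p = 0.0217) and Ldha (0.36, adjusted p = 0.0456) were called higher. The Orm genes span 21.3 kb of chromosome 4 (chr4:63344556-63365877), in the order Orm1, Orm3 and Orm2. There 1 of 8 other genes, the collagen gene Col27a1, was tested and was not called (0.06, adjusted p = 0.761).

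**Figure D4:**
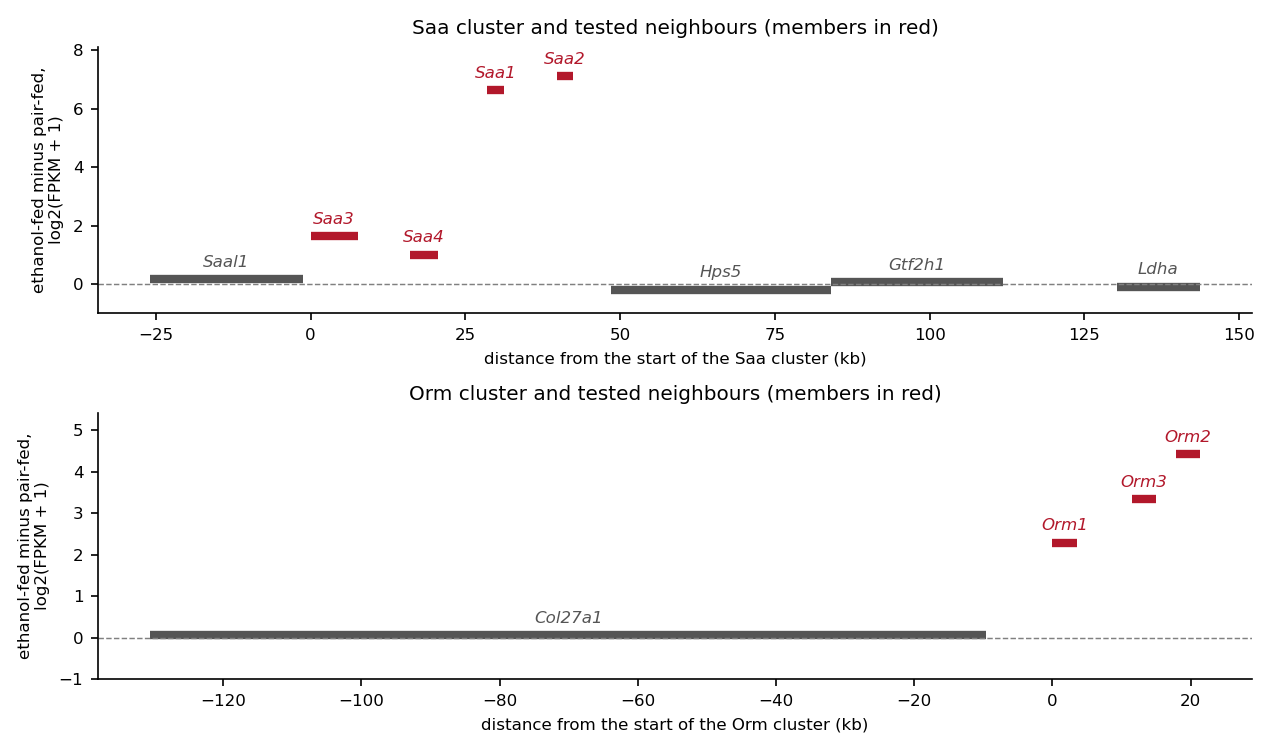
Difference in log2(FPKM + 1) between ethanol and pair-fed livers for each tested gene, placed by its distance in kb from the start of the Saa cluster (top) and the Orm cluster (bottom). Members (red) lie between 1.01 and 7.12, and the 5 tested neighbours (grey) between -0.21 and 0.16.

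Of 11 cytokines that induce the families, 4 were tested in ethanol livers against pair-fed livers, with none called higher and 2 lower, against 10.0% and 26.0% of all genes. Il6, Lif, Il11 and Il22 have no row, and Osm, Clcf1 and Tnf, the last at 0.157, 0.130 and 0.0813 FPKM in ethanol livers and 0.258, 0.164 and 0.211 FPKM in pair-fed livers, fell below the filter. Il1b, the interleukin-1 gene best known for inducing Saa, stood at 0.825, 3.77 and 3.73 FPKM in ethanol livers, against 1.09, 2.12 and 0.882 FPKM in pair-fed livers (log2 fold change 0.58, limma adjusted p = 0.266). Ethanol liver 1 had the least Il1b of these 6, and the least Saa1 of the ethanol livers but more than any pair-fed liver. Ctf1 and Il18, a cytokine of the gp130 family and one of the interleukin-1 family, fell by 0.49 and 0.47.

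Of 12 receptor genes 11 were tested in that comparison, with 1 called higher and 2 lower, against 10.0% and 26.0% of all genes. Under median-ratio scaling 2 were called higher and 1 lower, where 1796 and 1663 of all 10032 genes tested were. Tnfrsf1a, the tumour necrosis factor receptor, rose by 0.67 (limma adjusted p = 0.0149), and Lifr, the leukaemia inhibitory factor receptor, fell by 1.30 (adjusted p = 0.00195). Il1r1, the signalling interleukin-1 receptor, stood at 63.3, 82.2 and 26.7 FPKM in Mettl3 ethanol livers, 7.72, 41.6 and 62.6 FPKM in ethanol livers and 13.1, 9.23 and 10.7 FPKM in pair-fed livers. Ethanol liver 1 had less Il1r1 than any pair-fed liver. The gene was called higher in Mettl3 ethanol livers against pair-fed livers (log2 fold change 2.15, adjusted p = 0.0259) and not in ethanol livers against pair-fed livers (1.27, adjusted p = 0.168), and its difference between the ethanol groups was not called (0.88, adjusted p = 0.722). Il6st, which encodes the shared gp130 chain, had log2 fold changes of 0.71 (adjusted p = 0.00797) and 0.27 (adjusted p = 0.269) in the same 2 comparisons with pair-fed livers, and of 0.44 between the ethanol groups (adjusted p = 0.641).

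Among 20 tested signalling and transcription factor genes, 3 were called higher and 5 lower in ethanol livers against pair-fed livers. These shares lay near the 10.0% and 26.0% of all genes. Under median-ratio scaling 7 were called higher and 3 lower, where 1796 and 1663 of all 10032 genes tested were. Cebpd and Cebpb, the inducible C/EBP factors, were called higher by 1.32 (limma adjusted p = 0.00664) and 0.58 (adjusted p = 0.0235), and Cebpa, the constitutive one, fell by 0.92 (adjusted p = 0.00684). Cebpd had 2.78, 5.15 and 6.61 FPKM in ethanol livers, against 1.26, 1.35 and 1.14 FPKM in pair-fed livers. Its groups did not overlap, and ethanol liver 1 was the lowest of its own. Rela, an NF-kB subunit, was called higher (0.56, adjusted p = 0.0378). Also among the 5 called lower were Pim3 (-1.24, adjusted p = 0.0103), Jak2 (-0.45, adjusted p = 0.0109) and Nfkbia (-0.67, adjusted p = 0.0149). Under median-ratio scaling Nfkbia lost its call (-0.50, adjusted p = 0.0651). Nr3c1, the glucocorticoid receptor, was called lower (-0.51, adjusted p = 0.0283) and lost that call under median-ratio scaling (-0.34, adjusted p = 0.0577). Of the receptor and 10 genes known to respond to glucocorticoids, 5 of 11 were called higher and 2 lower, against 10.0% and 26.0% of all genes. The median was 0.53 against -0.14 for all genes, and under median-ratio scaling 5 were called higher and 0 lower. Those called higher were Lcn2 (5.72), Mt2 (4.71), Mt1 (4.26), Tat (1.73) and Sgk1 (1.26). Of these, Lcn2 is also counted among the positive acute phase genes below. Pck1 (-0.50) was called lower. Not called were Fkbp5 (0.24), Per1 (0.31), Dusp1 (0.53) and Tsc22d3 (0.0037), the last named after its value was seen to complete the count.

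Socs3, the feedback inhibitor that STAT3 induces, stood at 25.6, 34.7 and 16.7 FPKM in Mettl3 ethanol livers, 1.38, 22.2 and 14.0 FPKM in ethanol livers and 6.93, 5.04 and 3.86 FPKM in pair-fed livers. In ethanol liver 1 it was below every other liver, while Saa1 in that liver was above every pair-fed liver. The log2 fold change was 2.06 in Mettl3 ethanol livers against pair-fed livers (limma adjusted p = 0.0384), 0.61 in ethanol livers against pair-fed livers (adjusted p = 0.552) and 1.45 between the ethanol groups (adjusted p = 0.645). Stat3 itself had 0.85 (adjusted p = 0.0194) and 0.62 (adjusted p = 0.104) in the comparisons with pair-fed livers. Hnf4a, a hepatocyte identity factor, was not called in any of the 3 comparisons. Nfkb1 was not called either, but under median-ratio scaling it was called higher in ethanol livers (0.34, adjusted p = 0.0403) and in Mettl3 ethanol livers (0.39, adjusted p = 0.0108), each against pair-fed livers.

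**Figure D5:**
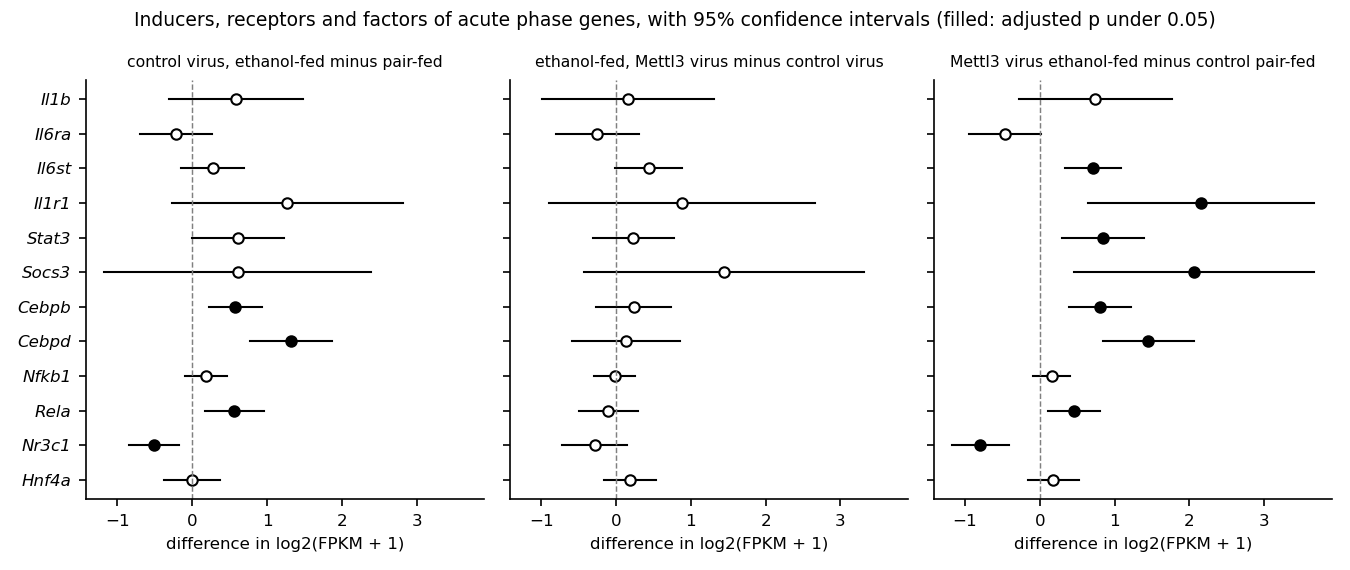
Differences in log2(FPKM + 1) with 95% confidence intervals for 12 inducer, receptor and factor genes in the 3 comparisons, filled where the adjusted p is under 0.05. Cebpb, Cebpd and Rela are filled above 0 and Nr3c1 below it in both comparisons with pair-fed livers, and no gene is filled between the ethanol groups.

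Other positive acute phase genes were called higher more often than lower, with a lower median fold change than either family. Of 28 tested, 16 were called higher and 3 lower in ethanol livers against pair-fed livers, against 10.0% and 26.0% of all genes, with a median log2 fold change of 0.91, against 4.14 for the 4 Saa genes, 3.34 for the 3 Orm genes and -0.14 for all genes tested. Called higher were Lcn2 (5.72, the third of all genes), Serpina3n (3.19), Hp (1.80), the protease inhibitor Serpina3m (1.60) and Hpx, or haemopexin, which binds haem (1.47). Crp, the major human acute phase protein, was not called (-0.27, limma adjusted p = 0.266), and the mannose-binding lectins Mbl1 (-0.58) and Mbl2 (-1.22) and complement factor Cfb (-0.41), named after its value was seen to complete the count, were called lower. Under median-ratio scaling Mbl2 kept that call, and Mbl1 (-0.40, adjusted p = 0.127) and Cfb (-0.22, adjusted p = 0.153) did not. In Mettl3 ethanol livers against pair-fed livers 18 were called higher and 2 lower, against 13.9% and 34.9% of all genes, with a median of 1.37, and between the ethanol groups none of the 28 was called, with a median of 0.50 against -0.04 for all genes. Crp stood at 340, 368 and 268 FPKM in Mettl3 ethanol livers, against 156, 184 and 245 FPKM in ethanol livers, without overlap and with an adjusted p of 0.641 (limma).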

How the data were processed

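Total RNA was sequenced from 9 mouse livers. Per the submitters' processing notes, fastp, HISAT2 and HTSeq were used on mm10; versions and strand setting are not given in the sources used here. The authors deposited FPKM values (reads scaled by gene length and library size) for 16842 and 16470 genes in tables for the 2 pairs of groups, with mean normalized signal, linear ratio (fold), log2 fold change, p-value and q-value columns, whose headers name DESeq2. The tables were joined on gene symbol (16266 genes in both; the shared ethanol columns differed by at most 1.08e-06 of their value). Whole reads were recovered from FPKM and the deposited signal columns; 100% of values under 1000 reads came out whole within 0.05.

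The test was limma 3.58.1 (R 4.3.3) with trend and robust settings on log2(FPKM + 1). Genes had to reach 1 FPKM in 3 or more of the libraries fitted, and p-values were Benjamini-Hochberg adjusted over all genes, with a threshold of 0.05. Summed families replaced their members in the same fit. Shares were tested by exact permutation over livers. Alternatives were a pseudocount of 0.1, no filter, median-ratio scaling, a replicate block, limma-voom on recovered reads, fits of 6 or 9 libraries and leaving out each library. The test was tried on simulated data.

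Promoters came from RefSeq (GRCm38.p6; 6 of 7 members matched), transcripts and gene positions from the GENCODE and RefSeq annotation of GRCm38. Text names all 7 members, the 3 nearest genes of each, genes within 100 kb, direct regulators, and up to 5 genes of the smallest p per list and comparison, with exceptions stated in the text. Members, lists and tests were chosen with earlier results of these data known.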

Additional observations from a re-analysis of the deposited data

How the results depend on the processing

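All 7 members stayed called higher in both comparisons with pair-fed livers, and none was called between the ethanol groups, under every alternative listed, each library left out included. Replicate numbers did not pair the livers. This was judged from each liver's deviations in log2(FPKM + 1) from its group mean over 10229 genes, not from whole profiles. Between same-numbered livers these deviations correlated at -0.19, -0.11 and 0.11 (ethanol with pair-fed), -0.35, 0.39 and -0.41 (Mettl3 ethanol with ethanol) and 0.05, -0.05 and 0.09 (Mettl3 ethanol with pair-fed). With the number as a block, calls over all genes were 2778 for ethanol against pair-fed, 0 between the ethanol groups (576 at an unadjusted p under 0.05) and 4472 for Mettl3 ethanol against pair-fed, against 3625, 1 and 4996 without it, and no member changed its call. Leaving out 1 library moved the calls over all genes in ethanol against pair-fed to 2157, 1538 and 1541 without pair-fed livers 1, 2 and 3, and to 4743, 2392 and 2591 without ethanol livers 1, 2 and 3. Between the ethanol groups 723 genes had an unadjusted limma p under 0.05. That number was 318, 889 and 827 without ethanol livers 1, 2 and 3. It was 321, 299 and 1726 without Mettl3 ethanol livers 1, 2 and 3.

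Median-ratio scaling moved the median of all genes to 0.01 in ethanol against pair-fed livers, against -0.14, and to 0.04 in Mettl3 ethanol against pair-fed livers, against -0.18. It turned the split of calls in ethanol against pair-fed to 1796 higher and 1663 lower, against 1009 and 2616, and in Mettl3 ethanol against pair-fed to 2597 and 2168, against 1424 and 3572. In ethanol against pair-fed it gave 2 receptors higher and 1 lower, 7 factors higher and 3 lower, 0 glucocorticoid-related genes lower, 1 positive acute phase gene lower, 2 negative acute phase genes lower and 3 binding partners lower. In Mettl3 ethanol against pair-fed it gave 1 positive acute phase gene lower, 2 negative acute phase genes higher and 6 lower, and 3 binding partners lower.

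Leaving out 1 library ended several calls of other genes. In ethanol against pair-fed livers Cebpb, Rela, Ctf1 and S100a8 were called in 1 of 6 such fits and Nr3c1, Sgk1 and Pck1 in 2. Apoa2 and Mbl1 were called in 3 and Tnfrsf1a and Il18 in 4. In Mettl3 ethanol against pair-fed livers Il1r1, Socs3 and Rela were called in 4 of 9 and Stat3 in 6. Between the ethanol groups the sign of 2 small differences depended on single livers: Saa4 ranged from -0.28 to 0.016 and Orm2 from -0.39 to 0.24 as each library was left out, and Orm2 was 0.023 under median-ratio scaling. The Saa1 share of all Saa differed by 0.154 percentage points in reads, against -1.47 in FPKM, and the Saa3 share ranged from -0.136 to 0.0234 points as each library was left out. Without ethanol liver 1 the differences between the ethanol groups were 0.20 for Saa1 and 0.22 for Saa2. With other libraries left out they ranged up to 1.48 for Saa1 and 1.73 for Saa2. The cause of these changes was not tested. At 3 livers a group, the 95% confidence intervals between the ethanol groups spanned -0.58 to 2.76 for Saa1 and Saa2 summed.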

Other observations

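Negative acute phase genes, whose liver transcripts fall in inflammation, were called in both directions beside the rise of the Saa and Orm genes, with a split that moved with the scaling. In ethanol livers against pair-fed livers 5 of 16 were called lower and 2 higher, near the 26.0% and 10.0% of all genes, and in Mettl3 ethanol livers against pair-fed livers 10 were called lower and 1 higher, against 34.9% and 13.9% of all genes (2 lower and 2 higher, and 6 lower and 2 higher, under median-ratio scaling). Serpina6, which encodes the corticosteroid carrier of plasma, stood at 61.3, 61.2 and 84.9 FPKM in Mettl3 ethanol livers, 122, 127 and 87.2 FPKM in ethanol livers and 320, 419 and 398 FPKM in pair-fed livers. Serpina7, the thyroxine carrier, went the other way, at 685, 322 and 109 FPKM in Mettl3 ethanol livers, 137, 270 and 350 FPKM in ethanol livers and 46.0, 44.8 and 28.4 FPKM in pair-fed livers. Alb, for albumin, was not called in either comparison.

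Among 15 tested genes for lipoprotein partners, receptors and proteases of the 2 families, 2 were called higher and 5 lower in ethanol livers against pair-fed livers. These shares lay near the 10.0% and 26.0% of all genes. Under median-ratio scaling 2 were called higher and 3 lower, where 1796 and 1663 of all 10032 genes tested were. Scarb1, the high-density lipoprotein receptor, fell by 0.92 (limma adjusted p = 0.0029), Apoa2, a main protein of that lipoprotein, by 0.44 (adjusted p = 0.0152, and 0.12 under median-ratio scaling), and Asgr2, a subunit of the receptor that clears desialylated glycoproteins, by 0.81 (adjusted p = 0.00209). Abca1, a cholesterol exporter, rose by 1.11 (adjusted p = 0.00661) and Ctsl, a lysosomal protease, by 1.33 (adjusted p = 0.00233). None of the 15 was called between the ethanol groups, where 0.0103% of all genes tested were.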
